A study of Ovis aries with 4 samples.

Results

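The genes described here encode translation initiation factors (names starting with EIF), RNA helicases of the DEAD-box (DDX) and DEAH-box (DHX) families, RNA-binding motif proteins (RBM), poly(A)-binding proteins (PABP), subunits of the CCR4-NOT deadenylase (CNOT) and La-related proteins (LARP). They were chosen by the start of the gene name among all genes with a peak in at least 1 of the 2 deposited peak lists, leaving out EIF4EBP1, RBMX and every gene that the deposited annotation assigns to the spliceosome pathway. The rule found 58 genes of 5261 with a peak, 40 in the aged list and 47 in the young list. Ovaries of aged Cele black sheep (5 to 6 years) and of young Cele black sheep (1 to 2 years) had been sampled, and RNA fragments immunoprecipitated with an antibody against N6-methyladenosine (m6A) were sequenced beside an input library. The series had 4 samples, 1 immunoprecipitate and 1 input at each age, and the peak list of each immunoprecipitate was analysed here. No treatment is labelled in either group, and whether an ovary sample pooled several animals is not given in the sources used here. With 1 list per age there was no replicate check and no test between ages, and each interval below covers counting error only.

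m6A is a methyl mark on adenosines inside messenger RNA, and proteins that recognise it act on the splicing, translation and decay of the transcript. A messenger RNA is translated when eIF4F binds its cap, eIF3 and the eIF2 ternary complex bring the small ribosomal subunit, and eIF5 and eIF5B let the large subunit join. Poly(A)-binding proteins and the CCR4-NOT complex protect and shorten the poly(A) tail, and RNA helicases unwind RNA during initiation, ribosome assembly and decay. In the ovary, stored messenger RNA of the oocyte is regulated largely through its poly(A) tail and cap.

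Each peak marks a transcript segment that the antibody enriched. Its fold enrichment (a linear ratio), its log10 p and its adjusted p are the authors' own values, and more negative log10 p values are stronger. The aged list held 3656 peaks and the young list 4378. The sources used here do not state the sequencing depth, so a missing peak does not show that a transcript was unmethylated, and a transcript with little RNA cannot be told apart from one with little methylation. The aged peaks had a median log10 p of -6.22 and the young peaks one of -15.3, so an equal log10 p need not mean the same in both lists. Of 14 genes that mark ovarian cells, 7 had a peak: NOBOX had a peak in the aged list only, FSHR and INHBB in both lists, and INHBA, STAR, CYP17A1 and FIGLA in the young list only. CYP17, a separately named gene entry on chromosome 22 with the deposited symbol CYP17A1, had a peak in the aged list only (fold 2.22). Whether the entries CYP17 and CYP17A1 are separate genes was not examined. A peak list does not measure expression, so the 7 marker genes without a peak say nothing of the tissue.

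Translation factor and helicase genes had a peak in both lists in 29 of 58 cases (50%, Wilson 95% interval 37.5 to 62.5), against 31.8% of all genes with a peak. A peak in the aged list only was present for 11 genes (19%, 10.9 to 30.9), against 26.9% of all genes, and in the young list only for 18 genes (31.0%, 20.6 to 43.8), against 41.3%. The interval of the share in both lists lay above the share of all genes, whereas the intervals of the shares in 1 list held that of all genes. With only peaks of at least the median fold of 2.00, the share in both lists was 33.3% (12 of 36 genes), against 19.1% of all genes. Membership in both lists was recorded for CCR4-NOT genes (4 of 5), DHX genes (3 of 5), RBM genes (8 of 16), EIF genes (7 of 15) and DDX genes (6 of 13). The same held for 1 of 2 LARP genes and for neither of the 2 PABP genes.

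**Figure D1:**
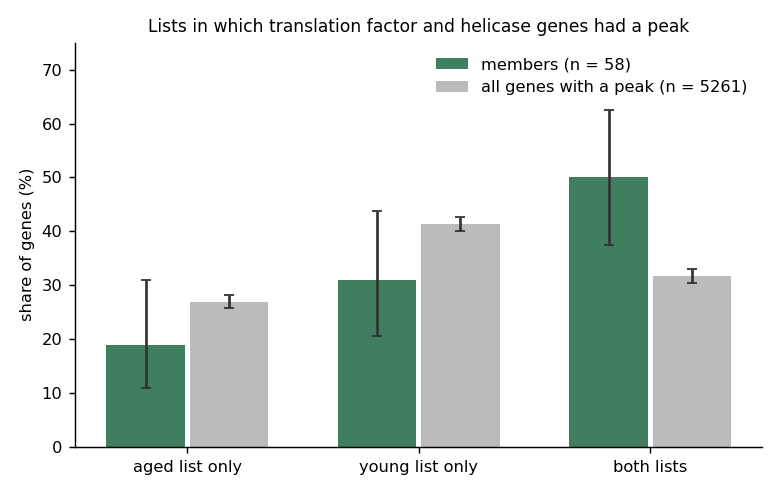
Share of genes (percent, vertical axis) with a peak in the aged list only, the young list only or both lists, for the 58 members (green) and all 5261 genes with a peak (grey). Error bars are Wilson 95% intervals, which cover counting error only; the members' bar for both lists is at 50%, against 31.8% for all genes.

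Of the factors that deliver the initiator tRNA, EIF2S1, EIF2B5 and EIF5 had peaks in both lists, and no other subunit gene of eIF2 or eIF2B had a peak under its own name. EIF2S1, the alpha subunit of eIF2 whose phosphorylation slows initiation under stress, had 2 aged peaks on chromosome 7 with folds of 1.62 and 2.00 and 2 young peaks with folds of 2.00 and 2.17. The downstream aged peak (77341050 to 77341347, 3' UTR label) shared 248 bases with the downstream young peak (77341100 to 77341396, stop codon label). The upstream peaks of the lists lay 493 bases apart and did not overlap, the aged one at 77338432 to 77338580 and the young one at 77339074 to 77339223. EIF2B5, the catalytic subunit of the exchange factor that recharges eIF2, had 1 aged peak on chromosome 1 (203790420 to 203791348, fold 1.61) and 1 young peak (203790222 to 203790618, fold 1.65). They overlapped by 199 bases of genomic span, and the aged peak crossed an intron. The young peak of EIF2B5 had a log10 p of -50.2, the 84th strongest of 4378, and the aged one a log10 p of -6.18. EIF5, which stimulates GTP hydrolysis by eIF2, had 1 aged peak with a fold of 1.87 (chromosome 18, 65730069 to 65732328) and 2 young peaks with folds of 1.89 and 2.14. The aged peak and the young one at 65729755 to 65731611 were both labelled exon and overlapped, and the 3' UTR peak at 65734761 to 65734961 was in the young list only.

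EIF5B, the GTPase that joins the ribosomal subunits, had the widest peak of the whole young list. Its aged peak on chromosome 3 (101976107 to 101990044) covered 1341 exonic bases with a fold of 1.94, and its young peak (101973055 to 101988986) covered 1044 with a fold of 1.77. By width these ranked 4 of 3656 in the aged list and 1 of 4378 in the young list, and both crossed introns. The aged EIF5B peak was weak, with a log10 p of -1.43 and an adjusted p of 0.109, whereas the young one had a log10 p of -12.8. EIF1AX, which encodes the scanning factor eIF1A, was found with a young peak alone (fold 1.72), and EIF1AD, a gene with an eIF1A-like domain, had one in the aged list only (fold 1.59).

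Subunits of eIF3, the complex that bridges messenger RNA and the small ribosomal subunit, differed in where they had peaks. EIF3A, its largest subunit, had 4 aged peaks and no young peak. In the direction of transcription the aged folds of EIF3A were 2.14, 1.65, 1.94 and 1.98, with adjusted p values of 0.389, 0.0977, 0.0537 and 0.0537, so none was below 0.05. All 4 were labelled exon and crossed introns, and in the same order they lay at 38780357 to 38782628, 38775697 to 38779650, 38772415 to 38775597 and 38770378 to 38772316 on chromosome 22. EIF3J, a loosely bound subunit, had 2 aged peaks with folds of 2.00 and 1.84 and 3 young peaks with folds of 2.82, 2.00 and 2.37, all on chromosome 7. Each list had an EIF3J peak labelled exon, at 100949924 to 100963842 in the aged and 100949750 to 100960578 in the young list. These covered 200 exonic bases in the aged and 250 in the young list, and both crossed introns. They overlapped by 10655 bases of genomic span, introns included, and whether they shared exonic bases was not examined. At the 3' end of EIF3J, 1 aged peak (100968207 to 100968605) stood across a gap between 2 young peaks. The young peaks lay at 100967959 to 100968108 (3' UTR label) and 100968555 to 100968804 (stop codon label). The aged peak shared 51 bases with the downstream one and lay 98 bases from the upstream one. EIF3H (fold 1.73) and EIF3I (fold 1.74) had a peak labelled stop codon in the young list only. Their log10 p values of -37.2 and -38.2 ranked 299 and 268 of the 4378 young peaks.

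Genes of the cap-binding complex eIF4F and its relatives were divided between the lists. EIF4G1, the scaffold of eIF4F, had an aged fold of 1.81 (chromosome 1, 203640665 to 203640962) and a young fold of 1.61 (203640665 to 203643703), both labelled 3' UTR and ending at the same base on the 3' side. Its paralogue EIF4G3 had a peak in the aged list only (chromosome 2, 245570673 to 245571072, fold 1.89). EIF4A1, the helicase of eIF4F, had a young peak only (fold 1.87), as did EIF4E3, a cap-binding relative of eIF4E (fold 1.72). EIF4E2, a cap-binding protein that represses translation, had 2 aged peaks with folds of 1.97 and 1.96 and 2 young peaks with folds of 3.47 and 1.92 on chromosome 2. Each aged EIF4E2 peak overlapped a young one and shared its 3' boundary, at 234182743 for the peaks labelled stop codon (starting at 234178053 aged, 234178003 young) and at 234188993 for those labelled 3' UTR (starting at 234188795 aged, 234188845 young).

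**Figure D2:**
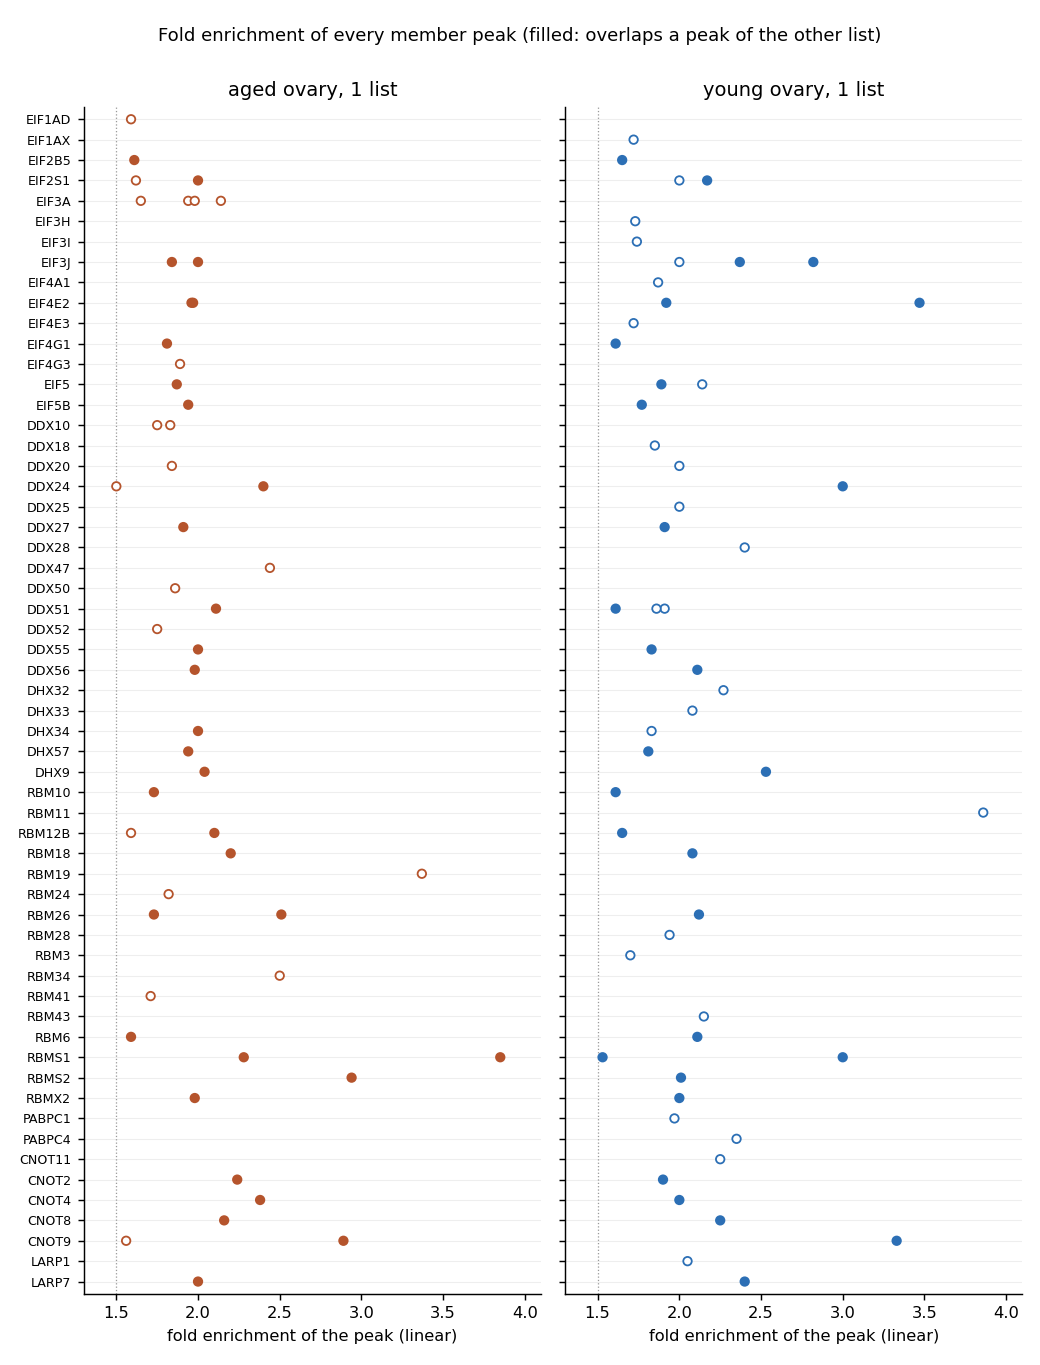
Fold enrichment (linear, horizontal axis) of every peak of the 58 genes in the aged list (left) and the young list (right), with genes in rows by family. Filled points overlap a peak of the other list on the same strand by 1 base or more (for DHX34 a peak of C5AR2), open points do not; the dotted line is the lowest deposited fold of 1.5, the highest aged point is RBMS1 at 3.85 and the highest young point RBM11 at 3.86.

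The members named PABPC1 and PABPC4 had peaks in the young list only, while LOC genes with a poly(A)-binding protein symbol also had aged peaks. PABPC1, the main cytoplasmic poly(A)-binding protein, had 1 young peak labelled 3' UTR on chromosome 9 (76573670 to 76573918, fold 1.97). PABPC4 had 1 young peak labelled start codon on chromosome 1 (14219540 to 14219739, fold 2.35), the only start codon label among the 55 young member peaks, where 0.571% of all young peaks had it. A LOC gene on chromosome 4 with the deposited symbol PABPC1 had an aged peak with a fold of 1.58, and one with the symbol PABPN1 had peaks in both lists. The LOC gene with the symbol PABPC1 may be a copy of that gene, and reads of copies alike in sequence cannot be assigned with certainty. No sequences were compared here. LARP1, which binds messenger RNAs of the translation machinery, had a young peak only (chromosome 5, 63794289 to 63794538, fold 2.05). LARP7, which binds and stabilises the 7SK RNA, had an exon peak in both lists on chromosome 6, with an aged fold of 2.00 (13383651 to 13384151) and a young fold of 2.40 (13383552 to 13384052). Each covered 347 exonic bases and crossed an intron, and they overlapped by 402 bases of genomic span, intron included.

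Of the 5 CNOT genes with a peak, 4 were in both lists and CNOT11 was in the young list only. Over all 7 genes with a peak that carry the deposited CCR4-NOT complex term, 4 were in both lists, 1 in the aged list only and 2 in the young list only. CNOT2, a core subunit, had an aged fold of 2.24 and a young fold of 1.90, with an aged peak at 149433046 to 149433295 of chromosome 3 (3' UTR label) and a young one at 149432946 to 149433195 (stop codon label). CNOT4, a ubiquitin ligase of the complex, had an aged fold of 2.38 and a young fold of 2.00, and its 3' UTR peaks on chromosome 4 shared the 5' boundary (100637475 to 100637725 aged, 100637425 to 100637725 young). CNOT8, a deadenylase, had an aged fold of 2.16 and a young fold of 2.25, and its young 3' UTR peak (63842198 to 63842398) lay wholly within the aged one (63842098 to 63842448) on chromosome 5. CNOT9, which recruits RNA-binding partners, had 2 aged peaks with folds of 2.89 and 1.56 and 1 young peak with a fold of 3.33, all labelled 3' UTR on chromosome 2. The stronger aged CNOT9 peak (220574130 to 220574376) contained the young one (220574228 to 220574376), and the other (220575362 to 220575608), 985 bases downstream, had an adjusted p of 0.0661. CNOT11 had an exon peak (chromosome 3, 100284457 to 100287119, fold 2.25). No peak of any other CNOT gene was in either list.

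Helicase genes of the DDX family had 12 aged and 11 young peaks. DDX20, which encodes the Gemin3 subunit of the complex that assembles spliceosomal RNPs, had the strongest member peak of the aged list, at a log10 p of -49.3. That peak ranked 3 of 3656 by log10 p, although its fold of 1.84 ranked 1973. The young DDX20 peak had a log10 p of -42.0, which ranked 179 of 4378, and a fold of 2.00. On chromosome 1 the aged peak (89188118 to 89188516, exon label) lay 248 bases upstream of the young one (89188765 to 89188914, stop codon label), and they did not overlap. Of the 29 members in both lists, only DDX20 had its lowest log10 p in the aged list (3.45%, against 5.92% of all genes in both lists).

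Several DDX genes encode nucleolar helicases of ribosome assembly. DDX24 had 2 aged peaks on chromosome 18 with folds of 2.40 and 1.5 and 1 young peak with a fold of 3.00. Its exon peaks (56461286 to 56461785 aged, 56461436 to 56461735 young) overlapped by 300 bases, and the aged 3' UTR peak (56445352 to 56447772) had no young counterpart. DDX27 had a fold of 1.91 in the aged list and 1.91 in the young list, with exon peaks ending at the same base of chromosome 13 (77338878 to 77342727 aged, 77340785 to 77342727 young). DDX55 had exon peaks in both lists on chromosome 17, with an aged fold of 2.00 (52103023 to 52104585) and a young fold of 1.83 (52103122 to 52103667). DDX51 had 1 aged peak with a fold of 2.11 (chromosome 17, 45072604 to 45072850) and 3 young peaks with folds of 1.91 (45072358 to 45072506), 1.61 (45072604 to 45072752) and 1.86 (45072949 to 45073146) in the direction of transcription. The aged DDX51 peak started at the same base as the middle young one and reached 98 bases short of the downstream one. DDX56 had an aged fold of 1.98 and a young fold of 2.11, with 3' UTR peaks on chromosome 4 (78528665 to 78528864 aged, 78528714 to 78528914 young).

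DDX peaks of 1 list only came from other nucleolar genes and from organelle and germ-cell helicases. In the aged list only were DDX47 (fold 2.44, chromosome 3, 202690232 to 202690481), DDX50 (1.86, chromosome 25, 24438566 to 24442836) and DDX52 (1.75, chromosome 11, 13605123 to 13605270), each labelled 3' UTR. DDX10 had 2 aged peaks on chromosome 15 and none in the young list, with folds of 1.83 (18221235 to 18322652, exon label) and 1.75 (18353380 to 18353529, 3' UTR label). In the young list only were DDX28, a helicase of mitochondrial ribosome assembly (fold 2.40, log10 p -31.1, chromosome 14, 35040429 to 35040727), DDX25, known in rodents as a gonadotropin-regulated testicular helicase (2.00, chromosome 21, 26741542 to 26742769), and DDX18 (1.85). Of 16 members that the deposited annotation places in the nucleolus, 6 were in both lists, 6 in the aged list only and 4 in the young list only. Over all 315 genes with that term, 99 (31.4%) were in both lists, 82 in the aged list only and 134 in the young list only.

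DHX genes had 3 aged and 5 young peaks. DHX9, RNA helicase A, had an aged fold of 2.04 and a young fold of 2.53, with 3' UTR peaks on chromosome 12 (63388835 to 63388984 aged, 63388736 to 63388935 young). DHX57 had an aged fold of 1.94 and a young fold of 1.81, both labelled stop codon on chromosome 3 and ending at the same base (85371236 to 85371634 aged, 85371485 to 85371634 young). DHX34, which acts in nonsense-mediated decay, had its aged peak at a start codon label (chromosome 14, 54100097 to 54107458, fold 2.00) and its young peak at a stop codon label (54130540 to 54130688, fold 1.83). It was the only start codon label among the 52 aged member peaks, where 0.492% of all aged peaks had it. The DHX34 peaks lay 23081 bases apart, and the aged span overlapped a young peak assigned to another gene, C5AR2. DHX32 (fold 2.27, chromosome 22, 44831438 to 44831887) and DHX33 (fold 2.08, chromosome 11, 25996994 to 25997143) had a young peak only, labelled stop codon. The DHX32 peak covered 450 bases with a log10 p of -69.8, the strongest of the member peaks in the young list and the 10th of 4378.

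**Figure D3:**
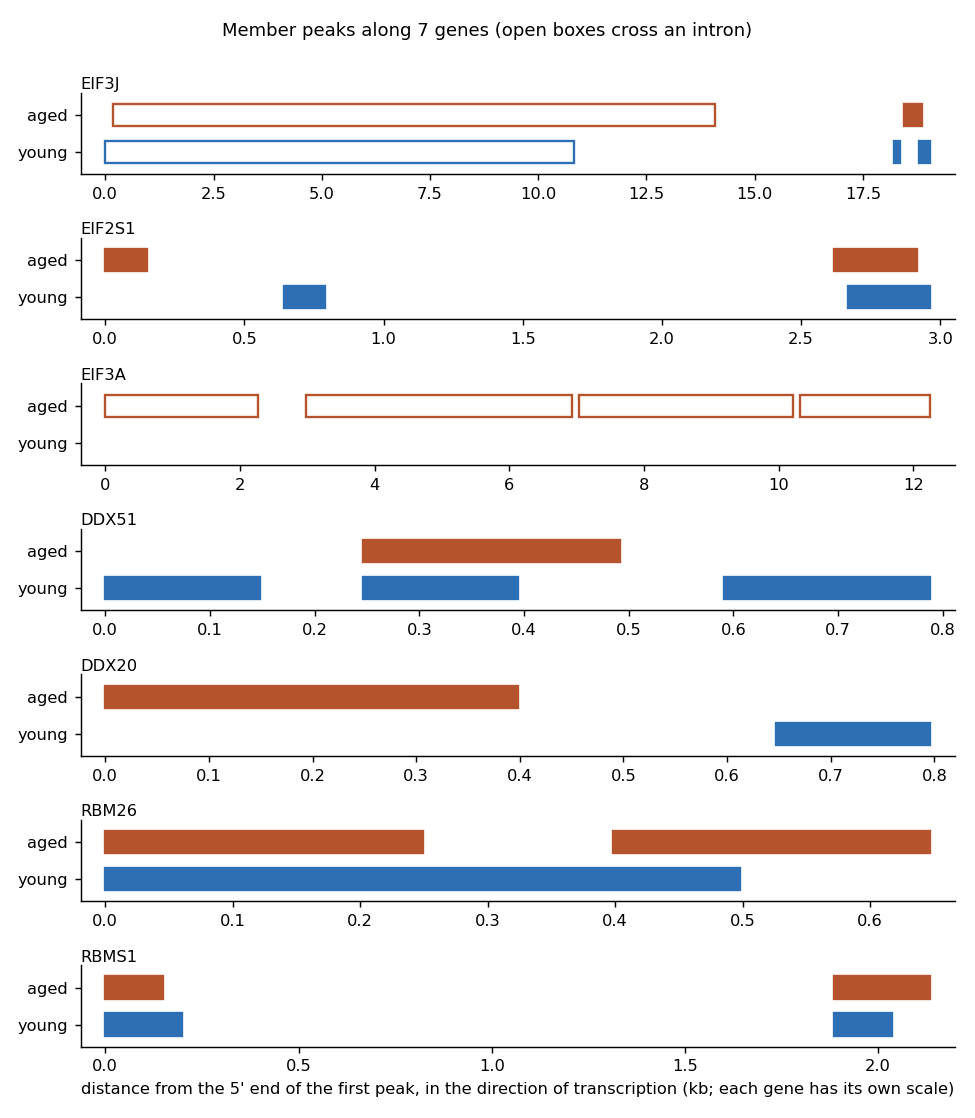
Positions of the peaks along 7 member genes, with aged peaks above young peaks; the horizontal axis is the distance in kilobases from the 5' end of the first peak, in the direction of transcription, with its own scale for each gene. Open boxes cross introns, which are drawn to scale within them; the DDX20 peaks do not overlap, EIF3A has 4 aged boxes and no young one, and the RBMS1 peaks begin at the same bases in both lists.

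RBM genes held the highest member fold of each list. RBMS1, which binds single-stranded nucleic acid and 3' UTRs, had 2 aged peaks with folds of 3.85 and 2.28 and 2 young peaks with folds of 1.53 and 3.00, all labelled 3' UTR on chromosome 2. The aged and young peaks started at the same base at both places, upstream (149474551 to 149474700 aged, 149474551 to 149474750 young) and downstream (149476438 to 149476686 aged, 149476438 to 149476587 young), and the higher fold was at the upstream place in the aged list and at the downstream place in the young list. RBMS2, its paralogue, had an aged fold of 2.94 and a young fold of 2.01, with 3' UTR peaks on chromosome 3 (163053023 to 163053273 aged, 163052973 to 163053123 young). RBM26 had 2 aged peaks on chromosome 10, with folds of 2.51 (55043034 to 55043283, 3' UTR label) and 1.73 (55042636 to 55042885, stop codon label), and 1 young peak of 499 bases (55042785 to 55043283, fold 2.12) that overlapped both. RBM12B had 2 aged peaks on chromosome 9, with folds of 1.59 (83467714 to 83467914) and 2.10 (83468814 to 83469014). Its young peak (83468864 to 83469014, fold 1.65) ended at the same base as the downstream aged one, and both were labelled stop codon.

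The other RBM genes in both lists had 1 peak at each age. RBM18 had an aged fold of 2.20 and a young fold of 2.08, with 3' UTR peaks ending at the same base of chromosome 3 (13658783 to 13659082 aged, 13658883 to 13659082 young). For the splicing regulator gene RBM10 the aged fold was 1.73 and the young fold 1.61, on chromosome X (57633869 to 57634018 aged, 3' UTR label; 57633819 to 57634018 young, stop codon label). RBM6, a relative of RBM10, had an aged fold of 1.59 (chromosome 19, 50300368 to 50304843, exon label) and a young fold of 2.11 (50300318 to 50303722, 3' UTR label). RBMX2 on chromosome X had an aged fold of 1.98 over 830 exonic bases (114252383 to 114255386, 3' UTR label) and a young fold of 2.00 over 635 (114252286 to 114255094, exon label), widths that ranked 29 and 9 in their lists. A LOC gene with the same deposited symbol as RBMX2, on the same chromosome, had peaks in both lists as well, and the assignment of reads between them is uncertain.

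RBM genes of 1 list only had folds of 1.71 to 3.37 in the aged list and of 1.70 to 3.86 in the young list. RBM19, which acts in ribosome assembly, had the highest fold among the aged-only members (3.37, chromosome 17, 60816863 to 60817012, stop codon label), followed by RBM34 (2.50, chromosome 25, 7274477 to 7277582). RBM24, a splicing regulator of muscle (1.82, adjusted p 0.244, chromosome 20, 39312596 to 39312794), and RBM41 (1.71, chromosome X, 128243329 to 128243529) were in the aged list only as well. RBM11, a splicing regulator known from human brain and testis, had the highest fold of all young member peaks (3.86, chromosome 1, 143775248 to 143775445, 3' UTR label). RBM43 (2.15, chromosome 2, 158260129 to 158260278), the ribosome assembly gene RBM28 (1.94) and the cold-inducible gene RBM3 (1.70) were the other young-only RBM genes. The highest folds of the members ranked 63 of 3656 in the aged list, for RBMS1, and 117 of 4378 in the young list, for RBM11.

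Most members in both lists had aged and young peaks that overlapped in genomic span, introns included. Of the 29 members in both lists, 27 had a pair of overlapping peaks, against 84.1% of all genes in both lists, and DDX20 and DHX34 had none. Of aged member peaks 61.5% overlapped a young peak of any gene (48.0 to 73.5), against 41.0% of all aged peaks. The aged DHX34 peak is among them, through a peak of C5AR2 alone. Of young member peaks 54.5% overlapped an aged peak (41.5 to 67.0), against 34.3% of all young peaks. With only peaks within 1 exon, the shares were 60.6% of aged member peaks, against 40.1% of all aged peaks, and 48.7% of young member peaks, against 31.2% of all young peaks. By at least 50% of both peaks the shares were 46.2% of aged member peaks, against 29% of all aged peaks, and 43.6% of young member peaks, against 24.3% of all young peaks. The 31 overlapping pairs had the same 3' boundary in 8 cases, the same 5' boundary in 6 and identical boundaries in 0. Shared boundaries were not counted over the pairs of all genes, so these counts are not read as particular to the members. The label was the same in 23 of the 31 pairs, against 72.5% of the overlapping pairs of all genes.

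The share of exon labels among member peaks was above that of all peaks in both lists. The exon label was given to 14 of 52 aged member peaks (26.9%, 16.8 to 40.3), against 15.3% of all aged peaks, and to 11 of 55 young member peaks (20.0%, 11.6 to 32.4), against 9.30% of all young peaks. Of the 14 aged exon peaks 4 were those of EIF3A, and without that gene the aged share was 20.8% (11.7 to 34.3), an interval that held the share of all aged peaks. The exon label stood on both peaks in 7 of the 31 overlapping member pairs, those of DDX24, DDX27, DDX55, EIF3J, EIF5, EIF5B and LARP7, against 7.79% of the overlapping pairs of all genes. In each of these pairs except that of DDX24, both peaks crossed introns. Overlap was counted over genomic span, so these pairs need not share exonic bases. Introns were crossed by 36.5% of aged member peaks (24.8 to 50.1), against 22.5% of all aged peaks, and by 29.1% of young member peaks (18.8 to 42.1), against 16.9% of all young peaks. Without EIF3A the aged share was 31.2% (19.9 to 45.3), an interval that held the 22.5% of all aged peaks.

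The remaining labels were 3' UTR and stop codon for most peaks. The 3' UTR label was on 61.5% of aged member peaks, against 66.4% of all aged peaks, and on 45.5% of young member peaks, against 47.3% of all young peaks. Stop codon labels were on 9.62% of aged member peaks (4.18 to 20.6), against 15.3%, and on 32.7% of young member peaks (21.8 to 45.9), against 41.3%. Of the 31 overlapping pairs, 5 had an aged 3' UTR label and a young stop codon label, and 1 had the reverse. The shares of such pairs over all genes were not computed. The stop codon label was also rarer among all aged peaks (15.3%) than among all young peaks (41.3%), so these counts are not read as particular to the members. The stop codon label differed by strand in the aged list as a whole: it was on 27.5% of all aged plus-strand peaks (4 of 29 member peaks) and 2.58% of all aged minus-strand peaks (1 of 23). In the young list it was on 43.1% of all plus-strand peaks (12 of 34 member peaks) and 39.0% of all minus-strand peaks (6 of 21). Counts of this label therefore cannot be compared between the ages without regard to strand.

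The order of the labels along the transcript mostly went against their names. A stop codon precedes the 3' UTR, yet of the member genes with both labels in a list the 3' UTR peak lay upstream of the stop codon peak for RBM12B and RBM26 in the aged list and for DDX51, EIF2S1 and EIF3J in the young list. EIF4E2 had the stop codon peak upstream in both lists. Over all genes with both labels the 3' UTR peaks lay upstream in 82.1% of 84 aged and 93.3% of 195 young genes, though in 30.8% of the 13 aged genes on the minus strand. The labels are therefore given as deposited, and the positions, not the labels, place the peaks here.

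No member peak was labelled 5' UTR, of 52 aged and 55 young ones, where 2.49% of all aged and 1.55% of all young peaks were. A count of 0 allows shares of up to 5.77% of aged and 5.45% of young member peaks, which 3 counts would make.

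**Figure D4:**
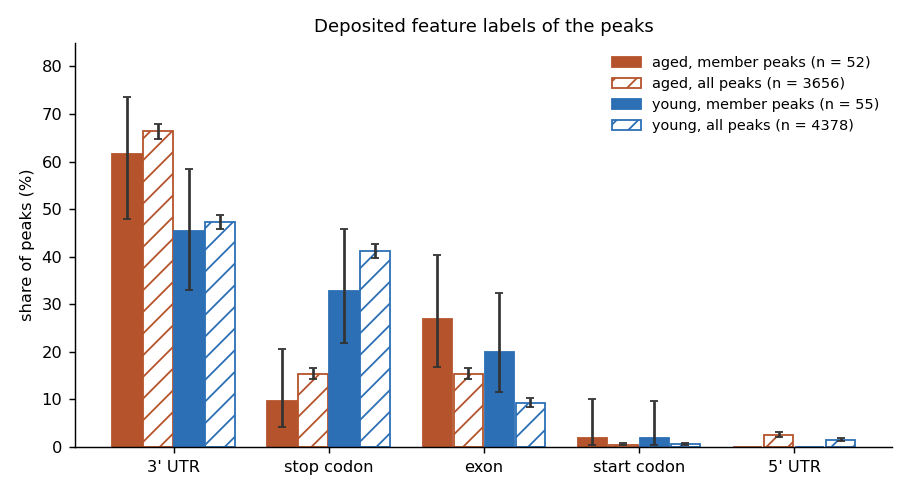
Share of peaks (percent, vertical axis) with each deposited feature label, for member peaks (filled) and all peaks (hatched) of the aged list (brown) and the young list (blue), with Wilson 95% intervals except at a count of 0, where no bar or interval is drawn. The exon bars of the members are at 26.9% in the aged and 20.0% in the young list, against 15.3% and 9.30% for all aged and all young peaks.

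Peak strength of the members was near that of each list as a whole. The median fold was 1.96 over the 52 aged member peaks, against 1.88 over all aged peaks, and 2.00 over the 55 young member peaks, against 2.05 over all young peaks. A fold of at least 2 was reached by 42.3% of aged member peaks, against 42.7% of all aged peaks, and by 54.5% of young member peaks, against 58.3%. The median log10 p was -5.95 for aged and -15.4 for young member peaks. An adjusted p above 0.05 was given for 7 aged member peaks (13.5%, 6.68 to 25.3), against 3.28% of all aged peaks, and for 0 of 55 young ones, against 0.228%. The 7 were the 4 of EIF3A and those of EIF5B, RBM24 and CNOT9. Without EIF3A the aged share was 6.25% (2.15 to 16.8), an interval that held the 3.28% of all aged peaks. Among the remaining member peaks the highest adjusted p was 0.00589 in the aged list (DDX50) and 1.00e-05 in the young list (EIF5). The deposited adjusted p did not follow from p alone. Of the distinct log10 p values, 513 of 994 in the aged and 374 of 852 in the young list were paired with more than 1 adjusted p. Counts at an adjusted p limit therefore depend on how the submitters adjusted, which is not stated.

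**Figure D5:**
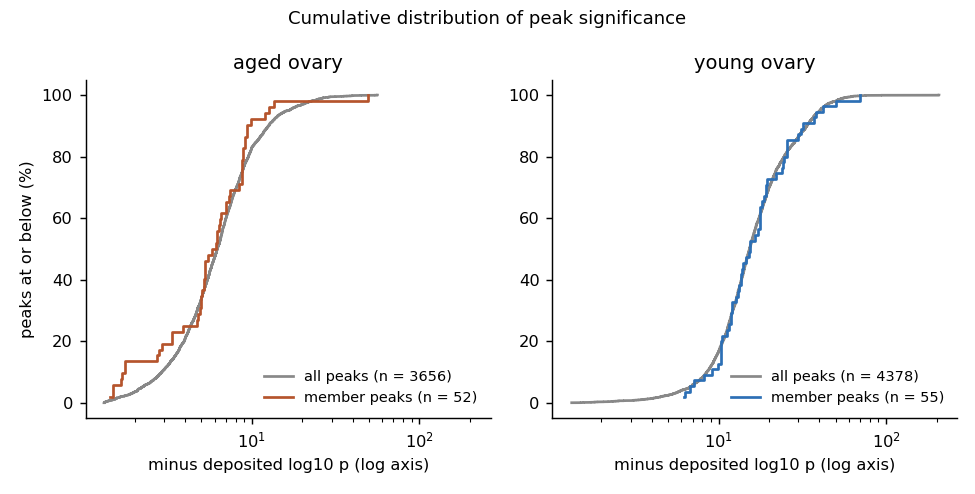
Cumulative share of peaks (percent, vertical axis) by the deposited log10 p with its sign turned (horizontal log axis), for member peaks (coloured) and all peaks (grey) of the aged list (left) and the young list (right). The aged member curve lies above that of its list at the weak end, where 7 of 52 peaks have an adjusted p above 0.05; the young member curve runs close to that of its list.

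Several member genes had more than 1 peak in a list. In the aged list 10 of 40 member genes had at least 2 peaks (25.0%, 14.2 to 40.2), against 15.1% of all aged genes, and in the young list 6 of 47 (12.8%, 5.98 to 25.2), against 12.1% of all young genes. Peaks of the same gene carried the same log10 p in 2 of the 10 aged genes, EIF3A and RBM26, against 40.4% of all aged genes with at least 2 peaks. They did so in 2 of the 6 young genes, DDX51 and EIF3J, against 20.6% of all such young genes. A log10 p repeated within a gene is not read here as separate evidence for each peak.

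Other genes of translation and messenger RNA turnover were counted from 4 lists for comparison. Of all genes with a peak, 31.8% were in both lists, 26.9% in the aged list only and 41.3% in the young list only. The counts are small and no difference from these shares was tested. Of 14 genes with a peak in a list of elongation, termination and recycling factors and related genes, 6 were in both lists. Another 2 were in the aged list only and 6 in the young list only. Those in both lists included EEF2KMT, a methyltransferase, EEF1E1, a tRNA synthetase complex protein, and MTIF3, a mitochondrial initiation factor. These are not elongation, termination or recycling factors themselves. EEFSEC, the selenocysteine elongation factor, had an aged fold of 4.40 and a highest young fold of 3.00, and PELO, which rescues stalled ribosomes, a highest aged fold of 2.00 and a young fold of 2.33. The release factor gene GSPT1 (highest fold 2.09) was in the young list only. Of 22 genes for poly(A) shortening, decapping and repression with a peak, 6 were in both lists, 4 in the aged list only and 12 in the young list only. TOB2, an adaptor of CCR4-NOT, and G3BP2, a stress granule protein, were in both lists, GIGYF2, the partner of EIF4E2, was in the aged list only (2.38), and the exonuclease gene XRN1 (1.52) and PAIP1, a partner of poly(A)-binding protein (1.83), were in the young list only.

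Of 10 genes with a peak in a list of other RNA helicases, 4 were in both lists, 1 in the aged list only and 5 in the young list only. The aged-only gene was SMARCA5 (fold 2.48), which encodes a chromatin remodelling ATPase and not an RNA helicase. DICER1 had a highest aged fold of 2.17 and a young fold of 2.67, and ZNFX1 was in the young list only (4.50). Of 15 genes with a peak in a broad list around eIF2, eIF4E and stress responses, 4 were in both lists, 7 in the aged list only and 4 in the young list only. The aged-only genes included CARHSP1 and ANGEL2, whose place in that control is not established here. PDCD4, an inhibitor of the eIF4A helicase, had a highest aged fold of 2.40 and a highest young fold of 2.67. GCN1, an activator of the eIF2 kinase GCN2, was in the aged list only (1.82) and ATF4, the transcription factor whose translation rises when eIF2 is phosphorylated, in the young list only (1.79).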

How the data were processed

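Peak lists of 1 m6A immunoprecipitate per age were analysed; the input libraries were not analysed here. Per the labels' protocols, RNA was extracted with Trizol and sequenced from stranded total RNA libraries. The submitters' processing notes name ChIPseeker and DESeq2 without a role; no aligner, peak caller or genome build is stated. Each deposited peak has a p-value, an adjusted p-value and a fold enrichment (linear ratio), per the file headers. The deposited log10 p columns were treated as a score. Coordinates are counted from 1. Chromosome numbers came from a RefSeq gene table (assembly ARS-UI_Ramb_v3.0), in which all 58 members were found by gene identifier. No sequence was used here.

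Overlap meant at least 1 base on the same strand over the genomic span, introns included. Shares have Wilson 95% intervals and medians intervals from order statistics; members of a list are not replicates. The members and lists were chosen with earlier results of these data known. Every member was named, with peak positions for genes in both lists, genes with several peaks and the 10 highest folds of each list alone. Overlap code was tested on copies of deposited young peaks of short span, moved by known distances. Peaks of long span were not part of that test. Alternatives were stricter fold or adjusted p, equal list lengths, each strand, other labels, other overlap rules and other members. The tools were scipy 1.17.1, numpy 2.4.6, pandas 2.3.3, matplotlib 3.10.9 and Python 3.11.15.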

Additional observations from a re-analysis of the deposited data

How the results depend on the processing

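For 11 results, 123 values were computed under other settings, and 116 of them stayed within the 95% interval of the value reported. This count is no measure of robustness, because the settings reuse the same peaks and the intervals are wide. Members by deposited symbol without LOC genes were again 58, with the reported values throughout. With only folds of at least 2.00, the share of members in both lists was 33.3% (19.1% of all genes), the share of young member peaks overlapping an aged peak 40% (20.2% of all young peaks), and the median folds 2.22 in the aged and 2.16 in the young list, which follows from leaving out low folds. With exon or UTR labels only, 31.9% of members were in the aged list only (41.3% of all genes) and 47.8% of aged member peaks overlapped a young peak (28.5% of all aged peaks); peaks with the stop codon label are then absent. Requiring 50% of both peaks gave 46.2% of aged member peaks (29% of all). The share of members in both lists was 46.4% with equal list lengths (29.8% of all genes), 54.8% on the plus strand (32.2%) and 44.4% on the minus strand (31.3%). Adding LOC genes by deposited symbol, an adjusted p of at most 0.05 and leaving out EIF3A and EIF5B were chosen after seeing the data; they gave 48.4%, 50% and 50%. No paired analysis was possible because each age had 1 immunoprecipitate, with different replicate numbers.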

Other observations

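Genes that the naming rule left out or could not reach had peaks too. The shares of all genes with a peak were 31.8% in both lists, 26.9% aged only and 41.3% young only. Of 9 genes with a fitting name that were left out, 4 were in both lists, 2 in the aged list only and 3 in the young list only. RBM25, a spliceosome gene, had 3 aged and 2 young peaks with highest folds of 3.36 in the aged and 3.17 in the young list. Of 6 LOC genes with a fitting deposited symbol, 2 were in both lists, 1 in the aged list only and 3 in the young list only. PABPN1, the nuclear poly(A)-binding protein, had a fold of 1.67 in the aged list and a highest fold of 2.67 in the young list. The export helicase genes DDX19A (2.89) and DDX19B (2.67), both on chromosome 14, and the start-site factor EIF1 (1.72) were in the young list only. These are LOC genes, and any with a copy alike in sequence may share reads with it, which was not examined.

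In the gene table LARP1 and CNOT8 are separated on chromosome 5 by 1 protein-coding gene, FAXDC2. Their young peaks are both labelled 3' UTR, with folds of 2.05 for LARP1 and 2.25 for CNOT8, and CNOT8 also had an aged peak.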
